A study of Mus musculus with 2 samples.

Results

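Genes of arginine and creatine metabolism were followed through every annotated cell type of the mouse kidney, in a healthy kidney and in an injured one. The 7 members are Ass1, Asl, Gatm, Oat, Arg1, Arg2 and Nos3, taken by name from the 15169 genes of the deposited count table, and all 7 were present. The libraries were 1 control and 1 injured kidney, each from a 9-week-old wild-type C57BL/6 mouse, profiled as single cells after Liberase and DNase I digestion. The control mouse was labelled a normal control. The injured mouse had unilateral ischaemia-reperfusion injury (IRI) with removal of the other kidney, and no time after injury is labelled. The control carries no label of a nephrectomy, so effects of ischaemia and of having a single kidney cannot be told apart. The series is titled around a requirement for arginase-1 in repair of the tubule by macrophages, and both mice are labelled wild-type.

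Arginine links these enzymes. Argininosuccinate synthase (Ass1) and argininosuccinate lyase (Asl) build arginine from citrulline and aspartate, and the proximal tubule of the kidney is a main site of this synthesis. Glycine amidinotransferase (Gatm) passes the amidino group of arginine to glycine, the first step of creatine synthesis. The arginases, cytosolic Arg1 and mitochondrial Arg2, split arginine into urea and ornithine, ornithine aminotransferase (Oat) carries ornithine towards glutamate and proline, and endothelial nitric oxide synthase (Nos3) turns arginine into nitric oxide and citrulline.

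The control library held 6589 cells with 24169073 unique molecular identifiers (UMIs, 1 per captured transcript) and a median of 2344 per cell. The IRI library held 5170 cells with 16816996 UMIs and a median of 1888.5. Levels below are UMIs of a gene per 1000000 UMIs of all genes (CPM), summed over the cells of a type, with an exact 95% Poisson interval in parentheses, and ratios carry an exact 95% interval. These intervals cover counting error only. Where 0 UMIs were found, the level of 3 UMIs is given as what that allows. Multiples of that level leave out the counting error of the IRI level. With 1 library per condition there is no replicate check, so the difference between the libraries was not tested and mouse-to-mouse spread is unknown. The other scale, the authors' depth-corrected count averaged over cells, weights every cell alike and is used for the log2 ratio of IRI over control, computed after adding 0.05 to each mean, and a member was counted as different at 2-fold. Free RNA in droplets gives low counts of abundant tubule genes in all cells, and T cells served as the reference for it. The 18 cell types and 29 clusters are the authors' annotation. All 7 members were among the variable genes on which such clusters are drawn, and a cluster held mostly by 1 library may be that library and not a type. Between the libraries, 55 cell barcodes were shared, and leaving those cells out changed no 2-fold call of a member.

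The proximal tubule was annotated as 3 segments, S1 to S3 from the glomerulus onwards, with 4827 control and 3261 IRI cells. The summed mean corrected count of 11 proximal tubule markers was 46.3, 66.1 and 91.0 in control S1, S2 and S3. In IRI it was 35.2, 35.0 and 52.8, lower in each segment. Kap, 1 of these markers, had 274773 summed corrected counts over all cells, against 19887 for Slc34a1 and 9914 for Lrp2. The sums therefore lean on Kap and do not show each marker by itself. The sum over 7 injured-tubule markers, among them Havcr1 and Krt20, went the other way. It went from 0.225 to 3.97 in S1, from 0.265 to 2.57 in S2 and from 0.0971 to 14.4 in S3. This sum does not show each marker by itself either. Over all 3 segments, none of the 6 members tested was 2-fold different between the libraries, where 1.17% of 11944 genes were 2-fold different in either direction. Gatm came closest, with a log2 ratio of 0.86.

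Ass1 was carried by every proximal segment. In control S1 its level was 1891 CPM (1842 to 1941), and in IRI S1 1501 (1468 to 1535). S2 held 1349 (1325 to 1373) in control and 1530 (1480 to 1582) in IRI, and S3 held 979 (957 to 1002) in control and 1165 (1124 to 1208) in IRI. Control cells thus fell off from S1 to S3 with intervals that did not overlap, whereas S1 and S2 of the IRI kidney overlapped and S3 stood below both. A UMI of Ass1 was found in 97.7% of control S1 cells and 94.0% of IRI S1 cells. Thinned to 1000 UMIs per cell, the shares were 79.1% and 71.1%, against 10.0% and 10.5% of control and IRI T cells, whose median depths were 2606 and 3345 UMIs.

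Over S1 to S3 together, Ass1 was 1289 CPM in control and 1421 in IRI, a ratio of 1.10 (1.08 to 1.13), and its log2 ratio of mean corrected counts was 0.11. The difference in S1 ran the other way, at a log2 ratio of -0.19. That S1 value became 0.03 when the libraries were scaled by a trimmed mean of log ratios, so no direction is given for Ass1 in S1 on the corrected scale. Cells annotated as injured proximal tubule (135 cells, IRI only) held 642 (595 to 692), below all 3 segments of the same kidney. Proliferating proximal tubule cells of the IRI kidney held 663 (589 to 744).

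Outside the proximal tubule, the Ass1 level was lower in IRI, with a ratio interval below 1, in 6 of the 10 other types compared. The phosphate transporter Slc34a1, a proximal transcript, is given beside it. Control cells named thin descending limb had a proximal marker sum like that of control S3, as given further on. They cannot be assumed to lack Slc34a1. Thin descending limb (tDL) cells went from 359 (326 to 394) to 141 (121 to 164) and resident macrophages from 405 (313 to 517) to 152 (120 to 191). Slc34a1 in the same cells went from 199 to 121 and from 381 to 180. Within tDL cluster 9 Ass1 was 150 (74.8 to 268) in control and 138 (118 to 161) in IRI, and within cluster 11 it was 373 (338 to 410) and 272 (117 to 535), so within each cluster the intervals of the libraries overlapped. In T cells Ass1 was 153 in control and 183 in IRI, with a ratio whose interval, 0.754 to 1.93, spans 1, while Slc34a1 there went from 375 to 118. Levels of Ass1 within or below the T cell range are therefore not read as expression, and the part of free RNA in these differences was not tested. The distal convoluted and connecting tubule was the type in which Ass1 was counted as 2-fold lower, from 156 (127 to 188) to 46.5 (25.4 to 78.0) and at a log2 ratio of -1.68, where 4.78% of genes were 2-fold lower. Slc34a1 in those cells was 151 in control and 136 in IRI. Both clusters of the type held less Ass1 in IRI, at 192 and 76.9 in cluster 15 and 107 and 30.4 in cluster 24. The control levels of the type and its clusters lay within the control T cell interval, 101 to 223. The IRI levels lay below the IRI one, 142.5 to 230. Neither is therefore read as expression. Over all cells, 1908 had a corrected Ass1 count above 0 without an Ass1 UMI. The part of the depth correction in the log2 ratio of -1.68 was not tested.

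Asl, the next enzyme of the pathway, was also highest in S1. In control, S1 held 181 (166 to 197), S3 59.1 (53.8 to 64.8) and S2 49.8 (45.2 to 54.6). In the IRI kidney S1 held 152 (142 to 163), S3 91.5 (80.2 to 104) and S2 80.5 (69.3 to 92.9), and the intervals of S2 and S3 overlapped. Over the 3 segments, Asl was 73.9 in control and 120 in IRI, a ratio of 1.62 (1.5 to 1.75), and injured proximal tubule cells held 118 (98.7 to 141). T cells held 45.5 in control and 20.6 in IRI, from 8 UMIs each, so control S2 and S3 lay within the control T cell interval of 19.6 to 89.6. Every other non-proximal type had at most 71.9 CPM.

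By segment, Gatm was highest in S1 of both kidneys, and S2 and S3 held more of it in the injured one. Control S1 held 1548 (1504 to 1593), against 227 (217 to 237) in S2 and 174 (164 to 183) in S3. In IRI, S1 held 1366 (1334 to 1398), S2 507 (479 to 537) and S3 611 (581 to 642). The intervals of the segments did not overlap in either library, and the order of S2 and S3 was opposite in the 2 kidneys. The ratio of IRI over control was 0.882 (0.850 to 0.915) in S1, 2.24 (2.08 to 2.4) in S2 and 3.52 (3.27 to 3.79) in S3. In S3 the mean corrected count went from 0.445 (SD over cells 1.04) to 1.31 (SD 1.77), a log2 ratio of 1.45, and Gatm was the member counted as 2-fold higher there, where 1.09% of genes were. In S1 the log2 ratio was -0.20, which moved to 0.01 under trimmed-mean scaling, so no direction is given there on the corrected scale.

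Per cell, a Gatm UMI was found in 36.7% of control and 58.5% of IRI S3 cells, at median depths of 4507 and 2338 UMIs. Thinned to 1000 UMIs, the S3 shares were 15.9% and 39.0%, and the S2 shares 18.1% and 33.5%. T cells at the same depth had 4.90% in control and 5.80% in IRI. The share of S3 cells with Gatm was thus higher in the IRI kidney although its cells were shallower. Injured proximal tubule cells held 490 (449 to 533) CPM of Gatm and proliferating ones of the IRI kidney 686 (611 to 768).

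**Figure D1:**
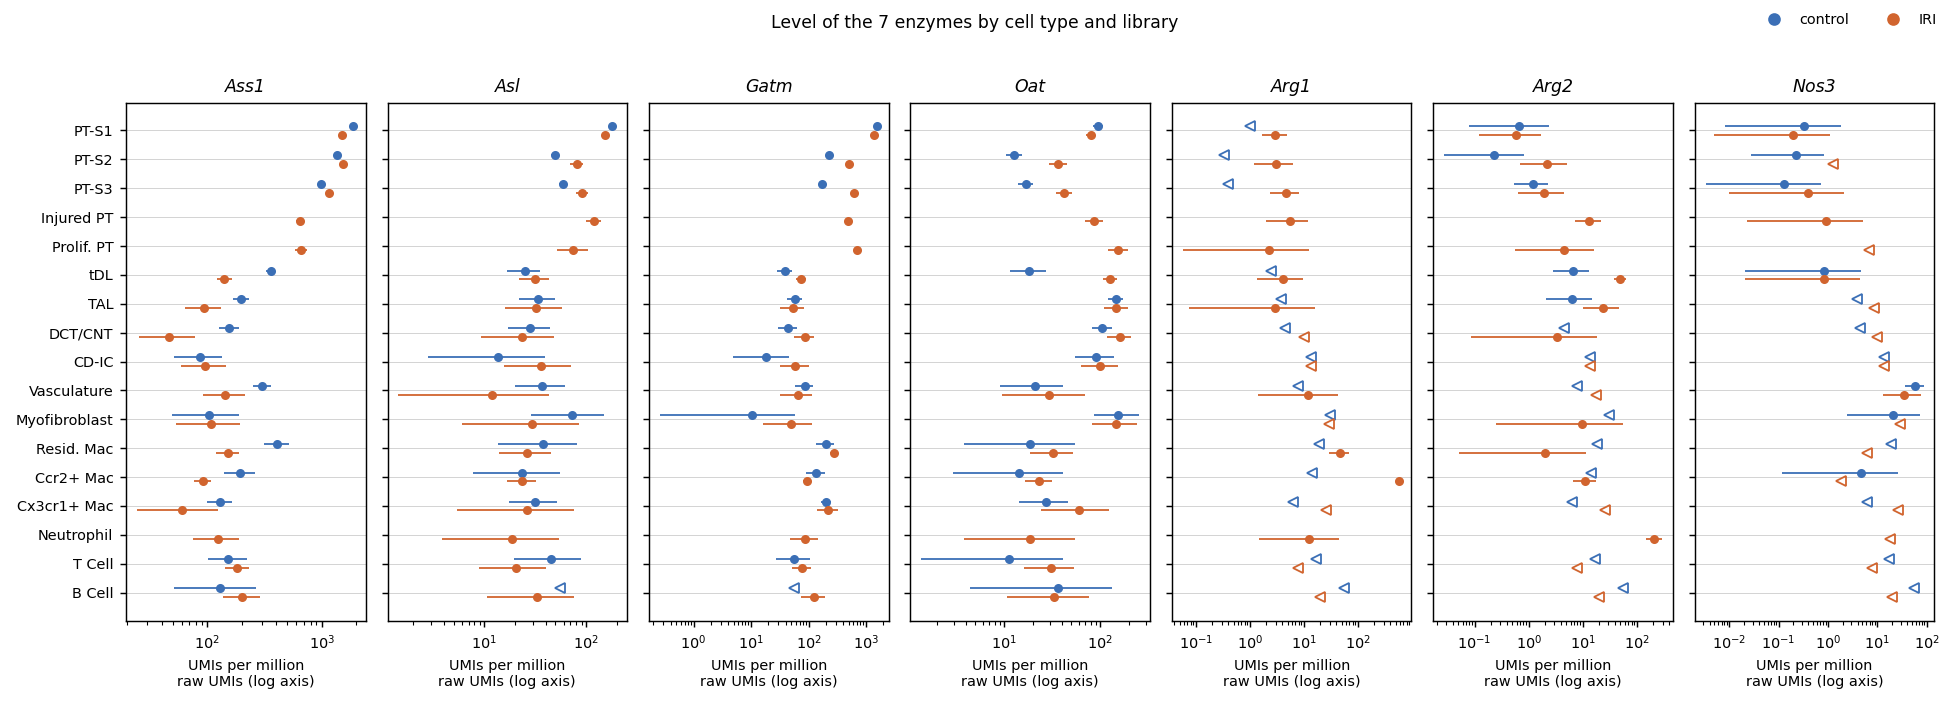
Level of each member by cell type, in CPM on a log axis, with control and IRI as separate points and exact 95% Poisson bars for counting error. Ass1 and Gatm peak in the proximal segments, Arg1 at 581 CPM in Ccr2+ macrophages of the IRI kidney, and Nos3 in vasculature.

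Oat was high in S1 and low in S2 and S3 of the control kidney. Control S1 held 94.9 CPM, S2 12.7 and S3 16.8, and the IRI kidney held 79.6, 36.3 and 41.9. The ratio was 2.87 (2.14 to 3.84) in S2 and 2.49 (1.91 to 3.25) in S3, but 0.838 (0.719 to 0.979) in S1. T cells held 11.4 (1.38 to 41.1) in control and 30.8 (15.9 to 53.9) in IRI. The pooled S2 and S3 levels of both kidneys lay within the T cell interval of their library, so the pooled levels are not read as expression. Some control clusters stood above that interval. They were S2 clusters 0, at 84.8 (59.1 to 118), and 12, at 88.3 (51.5 to 141), and S3 cluster 3, at 89.6 (60.9 to 127). The other control clusters of S2 and S3 did not, nor did any such IRI cluster by its interval. The part of free RNA in the S2 and S3 ratios was not tested. Over the 3 segments, Oat went from 27.1 to 59.8, a ratio of 2.21 (1.96 to 2.49). The log2 ratio of mean corrected counts was 0.56 there, and -0.28 in S1 alone (-0.10 under trimmed-mean scaling), which is under 2-fold in both. On the UMI scale, the levels of Ass1, Asl, Gatm and Oat were each above the control in S2 and S3 and below it in S1. In S2 and S3 the pooled Oat levels, and the control Asl levels, lay within T cell intervals. No shared pattern of expression is therefore read from this. With the clusters weighted alike, each of these ratios over the segments was below 1, as given further on. On the corrected scale, trimmed-mean scaling brought the S1 differences of Asl, Gatm and Oat to between -0.10 (Oat) and 0.01 (Gatm), with Asl at -0.02. The S1 value of Ass1 under that scaling is given above.

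Sequences upstream of the start were at hand for 3 of the 7 members, and they are shown because their levels by segment are described above. Each is 250 bases before the start of the RefSeq gene model on GRCm38.p6, written 5′ to 3′ on the gene's own strand. The windows are chr2:31470020-31470269 (plus strand) for Ass1, chr2:122611278-122611527 (minus strand) for Gatm and chr7:132576399-132576648 (minus strand) for Oat. Capitals mark matches to the motifs searched.
Ass1: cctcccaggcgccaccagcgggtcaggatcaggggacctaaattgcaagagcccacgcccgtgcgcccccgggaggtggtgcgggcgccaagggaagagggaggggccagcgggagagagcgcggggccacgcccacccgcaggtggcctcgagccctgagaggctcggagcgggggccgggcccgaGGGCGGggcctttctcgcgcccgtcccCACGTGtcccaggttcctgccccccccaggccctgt
Gatm: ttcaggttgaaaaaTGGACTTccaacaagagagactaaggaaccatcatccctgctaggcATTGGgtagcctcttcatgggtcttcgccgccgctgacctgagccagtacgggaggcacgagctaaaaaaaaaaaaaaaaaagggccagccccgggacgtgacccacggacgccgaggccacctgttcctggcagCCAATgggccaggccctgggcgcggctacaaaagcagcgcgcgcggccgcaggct
Oat: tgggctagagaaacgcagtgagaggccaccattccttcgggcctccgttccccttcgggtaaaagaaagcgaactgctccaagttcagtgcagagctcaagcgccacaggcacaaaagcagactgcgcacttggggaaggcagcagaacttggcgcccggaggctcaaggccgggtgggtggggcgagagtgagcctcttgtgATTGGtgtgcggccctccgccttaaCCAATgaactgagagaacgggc
The motifs searched, on both strands, were the GC box GGGCGG, the CCAAT box CCAAT, the TATA box TATAAA, an HNF1 half-site GTTAAT, an HNF4 core AAGTCCA and the E box CACGTG. Of 32536 such windows, 33.0% held the GC box, 33.8% the CCAAT box, 12.3% the TATA box, 6.47% the HNF1 half-site, 3.39% the HNF4 core and 6.04% the E box. The Ass1 window was 75.6% G and C and held a GC box at -63 and an E box at -36 relative to the start. The Gatm window was 59.2% G and C, with CCAAT boxes at -190 and -55 and an HNF4 core at -236. The Oat window was 60% G and C, with CCAAT boxes at -47 and -22. No 2 matches overlapped, and no motif was found in all 3 windows. The matches describe the letters and are not measured sites.

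The cells behind the proximal segments differed between the kidneys, and the member differences were not the same within clusters. PT-S1 made up 9.11% of control and 19.1% of IRI cells. S2 cluster 1 held 1283 control and 25 IRI cells, S2 cluster 0 held 391 and 1092, S3 cluster 3 held 127 and 727, and S3 cluster 4 held 742 and 58. Gatm in cluster 0 was 1386 CPM in control and 757 in IRI, and in cluster 3 it was 982 and 633. In cluster 1 it was 163 in control and 106 in IRI, and in cluster 4 it was 142 and 271. Among these 4 clusters, the 2 filled by IRI cells lay above the 2 filled by control cells in both libraries.

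Of the 8 proximal clusters compared, the ratio interval of Gatm lay below 1 in clusters 6, 0, 12 and 3 and above 1 in cluster 4, and it included 1 in clusters 5, 1 and 2. On the corrected scale cluster 5 was at a log2 ratio of 0.13. With these clusters weighted alike in both kidneys, Gatm was 848 CPM in control and 675 in IRI, a ratio of 0.796, in place of 2.36 (2.29 to 2.43) over all cells. On the corrected scale the log2 ratio was -0.47 in place of 0.86. Oat turned likewise, to 58.2 and 46.1 CPM and a ratio of 0.791, and its interval lay below 1 in 3 of the 8 clusters and above 1 in 0. Asl came to 117 and 97.4 (ratio 0.835), with intervals below 1 in 3 clusters and above 1 in 0. Ass1 came to 1672 and 1452 (ratio 0.868), with intervals below 1 in 4 clusters and above 1 in 1. Whether cells of the IRI kidney changed their levels or the kidneys held different proportions of cells cannot be told apart here, since the members took part in drawing the clusters.

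**Figure D2:**
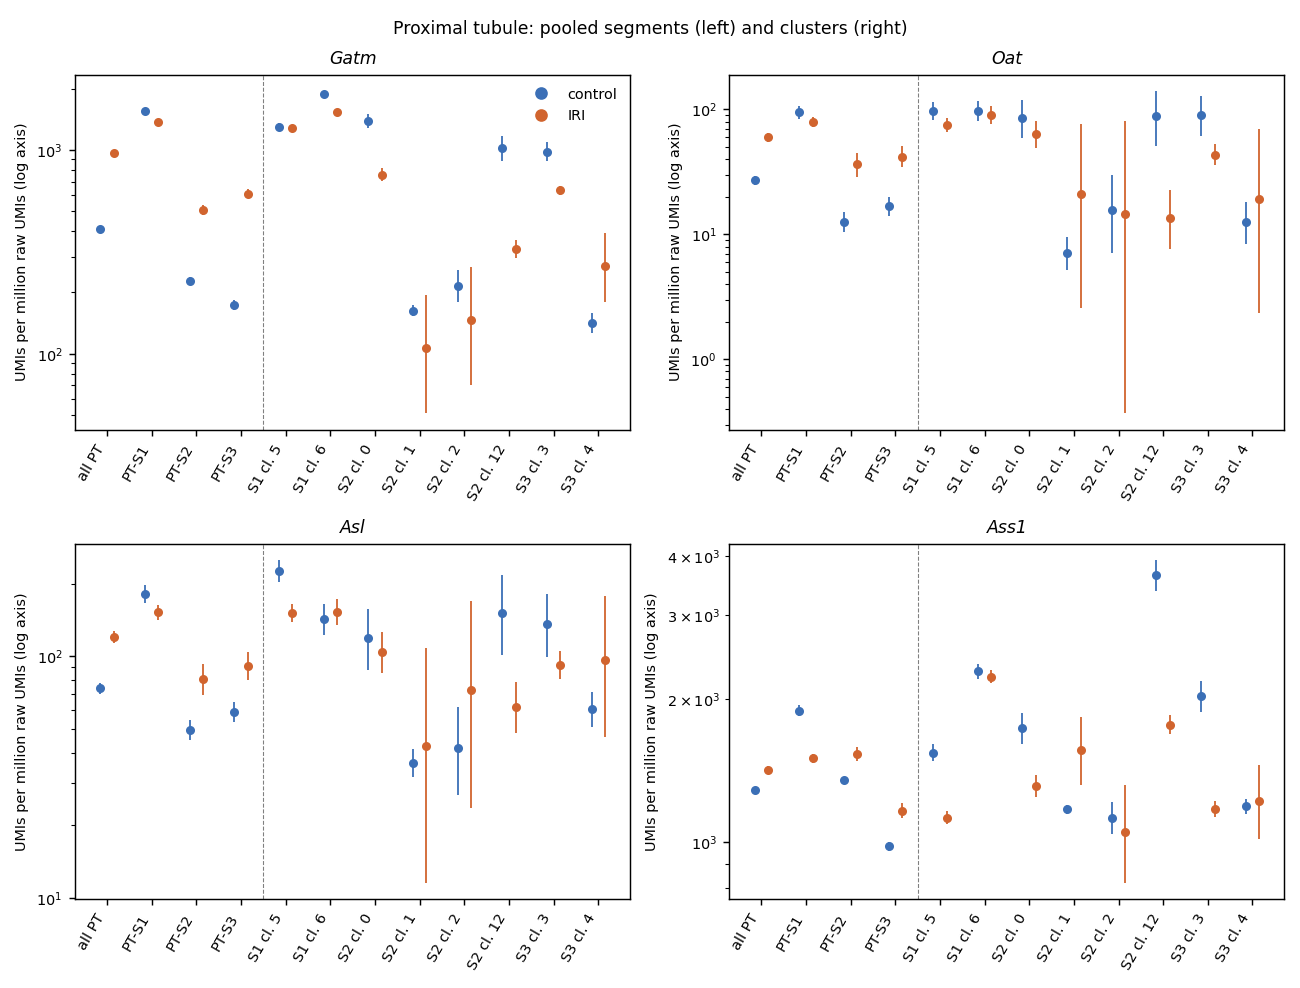
Ass1, Asl, Gatm and Oat in the proximal tubule clusters, in CPM, control against IRI within each cluster, with exact 95% Poisson bars. The Gatm ratio interval lies below 1 in 4 of the 8 clusters, although its level over all proximal cells is 2.36 times that of the control.

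The S2 cluster 12, with 66 control and 292 IRI cells, stood apart among these. Gatm there was 1019 (881 to 1172) in control and 327 (294 to 363) in IRI, and Oat was 88.3 and 13.6, a ratio of 0.154 (0.0718 to 0.329). Asl went from 151 to 61.8 and Ass1 from 3643 to 1767, with ratios of 0.410 (0.262 to 0.657) and 0.485 (0.445 to 0.530). On the corrected scale 3 of the 4 members tested in the cluster were 2-fold lower, namely Asl at -1.15, Gatm at -1.42 and Oat at -1.42, where 1.47% of genes were 2-fold lower. In cluster 1 Gatm was 2-fold lower at -1.08, where 5.43% of genes were, and in cluster 4 it was 2-fold higher at 1.10, where 0.708% were.

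In control Cx3cr1+ and in IRI resident and Ccr2+ macrophages, the number of Gatm UMIs per Ass1 UMI lay above that in T cells of the same library. The deposited types were resident, Ccr2+ and Cx3cr1+ macrophages, all with the macrophage markers present. Cx3cr1+ macrophages held 204 (165 to 248) CPM of Gatm in control (106 cells) and 216 (140 to 320) in IRI (19 cells). Resident macrophages held 200 (137 to 282) in control and 278 (233 to 328) in IRI. T cells held 56.8 (27.3 to 105) and 77.1 (52.0 to 110), below all of these. The ratio of Gatm to Ass1 UMIs was 1.58 (1.14 to 2.21) in control Cx3cr1+ macrophages, against 0.320 over all control cells and 0.370 (0.160 to 0.790) in control T cells. In IRI resident macrophages it was 1.83 (1.37 to 2.45), against 0.701 over all IRI cells and 0.423 (0.266 to 0.656) in T cells. IRI Ccr2+ macrophages had 1.03 (0.820 to 1.30), where Ass1 was 91.1 CPM, against 183 in IRI T cells. A raised ratio was not particular to macrophages. The distal convoluted and connecting tubule of the IRI kidney had 1.86 (0.935 to 3.85). Control resident macrophages had 0.492 (0.312 to 0.763) and control Ccr2+ macrophages 0.707 (0.424 to 1.17), which overlapped the T cells. Ccr2+ macrophages held 137 (91.7 to 197) in control and 94.1 (79.9 to 110) in IRI, and the ratio of the libraries, 0.688, has an interval that includes 1 (0.460 to 1.06). Both intervals overlapped those of T cells of the same library, so Gatm in Ccr2+ macrophages is not read as expression. In B cells no Gatm UMI was seen in 27 control cells, which allows up to 55.2 CPM. The 69 IRI cells held 19 UMIs, or 124 (74.9 to 194) CPM, 2.25 times that limit. Gatm was counted as 2-fold higher in B cells, where 9.1% of genes were, but it passed the count filter through the IRI cells alone. Its IRI interval also overlaps that of the IRI T cells, so it is not read as expression.

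Oat was as high in several distal segments as in S1. The thick ascending limb held 145 (120 to 175) in control and 147 (109 to 194) in IRI, and myofibroblasts, from 15 UMIs in each library, held 154 and 147. The distal convoluted and connecting tubule went from 105 (82.2 to 133) to 159 (118 to 211), a ratio of 1.52 (1.03 to 2.22). Intercalated cells of the collecting duct held 90.4 and 100.1. T cells held 11.4 and 30.8, from 2 and 12 UMIs. Oat was thus not confined to the proximal tubule in either kidney, and the IRI over control ratios of these types lay between 0.954 and 1.52.

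Among the 13 types compared, Oat differed most in tDL cells. The level was 18.2 (11.4 to 27.6) in 427 control cells and 127 (108 to 149) in 440 IRI cells, a ratio of 6.99 (4.45 to 11.5). The mean corrected count went from 0.0515 to 0.246, a log2 ratio of 1.54. Arg2 moved with it in these cells, from 6.63 (2.86 to 13.1) to 49.3 (37.6 to 63.5), a ratio of 7.44 (3.54 to 18.0) and a log2 ratio of 1.21. Oat and Arg2 were thus 2 of 5 tested members that were 2-fold higher in tDL, where 4.96% of genes were. The 60 Arg2 UMIs of IRI tDL cells lay in 41 cells, with at most 3 in a cell.

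The tDL name covered different cells in the 2 kidneys. Control tDL cells had a summed mean corrected count of 91.8 for the 11 proximal markers, like the 91.0 of control S3, and IRI tDL cells had 23.0. Kap is among these markers, so the likeness of the sums does not show how the other markers compare. The 5 thin-limb markers gave 2.48 and 3.07, the 7 injured-tubule markers 0.878 and 43.1, and the 3 thick ascending limb markers 0.173 and 3.12. Cluster 11 held 391 of the control and 20 of the IRI cells, and cluster 9 held 36 and 420. Within cluster 9, Oat was 109 (47.0 to 215) in control and 131 (111 to 153) in IRI. Arg2 was 81.7 (30 to 178) from 6 control UMIs and 46.3 (34.9 to 60.3) in IRI. In cluster 11, Oat was 12.4 (6.76 to 20.7) in control and had no UMI in the 20 IRI cells, which allows up to 102, while Arg2 was 1.76 from 2 control UMIs and 170 from 5 IRI UMIs. Within cluster 9 the Oat intervals of the libraries overlapped, with 8 UMIs in control. In cluster 11 the limit of 102 is too high to say whether Oat differed there as over all tDL cells. The part of the cluster makeup in the tDL difference was not tested further.

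**Figure D3:**
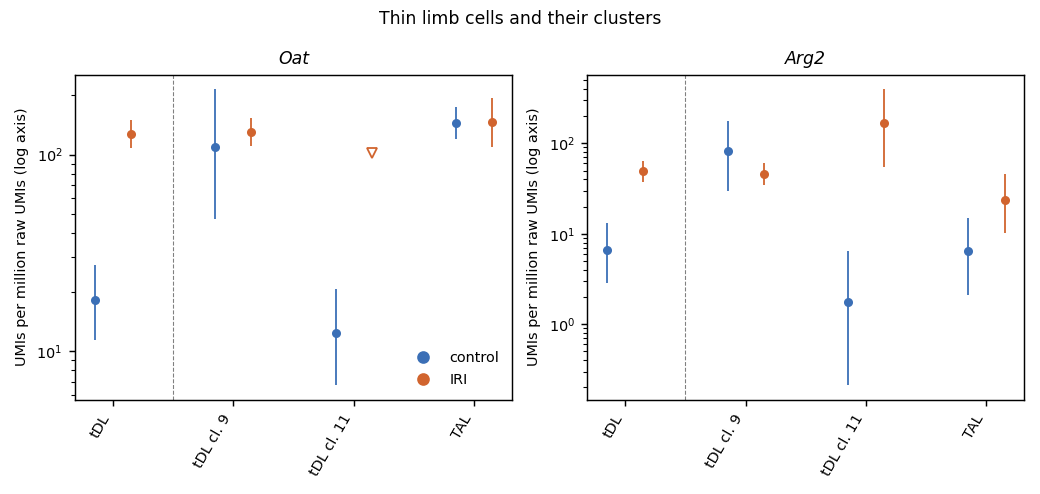
Oat and Arg2 in tDL cells and in tDL clusters 9 and 11, in CPM with exact 95% Poisson bars, control against IRI. Over all tDL cells Oat goes from 18.2 to 127, while within cluster 9 the intervals of the 2 libraries overlap.

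Arg2 was rare in the healthy kidney, with 28 UMIs in all its cells, and 152 were found in the IRI kidney. The levels were 1.16 (0.770 to 1.67) and 9.04 (7.66 to 10.6), a ratio of 7.80 (5.19 to 12.1). Among types with at least 20 cells, IRI neutrophils had the highest level, 210 (146 to 294), from 34 UMIs in 24 of 106 cells, 15 of which had a single UMI. Only 2 control neutrophils were present, too few for a comparison, and 5 neutrophil markers were all above 0 in the IRI cells with a summed mean corrected count of 128. The thick ascending limb went from 6.43 (2.09 to 15) to 23.5 (10.1 to 46.3), from 5 and 8 UMIs, a ratio of 3.65 (1.05 to 14.2). Injured proximal tubule cells held 12.9 (7.07 to 21.7) and IRI Ccr2+ macrophages 10.9 (6.48 to 17.3), whereas 32 control Ccr2+ macrophages held no UMI, which allows 14.2, so no difference was detectable there. In S1 to S3 the level was 0.669 in control and 1.30 in IRI, from 13 UMIs in each, and the ratio of 1.95 has an interval that includes 1 (0.833 to 4.56).

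Arg1 was found in the injured kidney and nowhere in the control. The control library held 0 Arg1 UMIs, which allows 0.124 CPM. The IRI library held 1030 Arg1 UMIs, a level of 61.3 and 493 times that limit. Ccr2+ macrophages, cells with the marker of recruited monocytes, held 956 of these UMIs, or 92.8% (exact binomial interval 91.1 to 94.3), in 4.20% of the cells. Their level was 581 (544 to 619), 41.0 times what 0 UMIs in 32 control cells allow. The mean corrected count was 1.96 (SD over cells 5.27) in IRI, a log2 ratio of 5.33. Arg1 was the 1 of 5 tested members that was 2-fold higher in Ccr2+ macrophages, where 12.5% of genes were. Here too it passed the filter through the IRI cells alone, so the count is not read against that share.

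Within the Ccr2+ macrophages, Arg1 lay in few cells. It was found in 60 of 217 cells (27.6%), with a median of 7.5 UMIs in those cells and a range of 1 to 68. The 10 cells with the most held 524 UMIs, 54.8% of the total of the type, and 27 cells had 10 or more. The other 157 cells had none at a median depth of 6879 UMIs, against 8290 in the cells with Arg1.

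**Figure D4:**
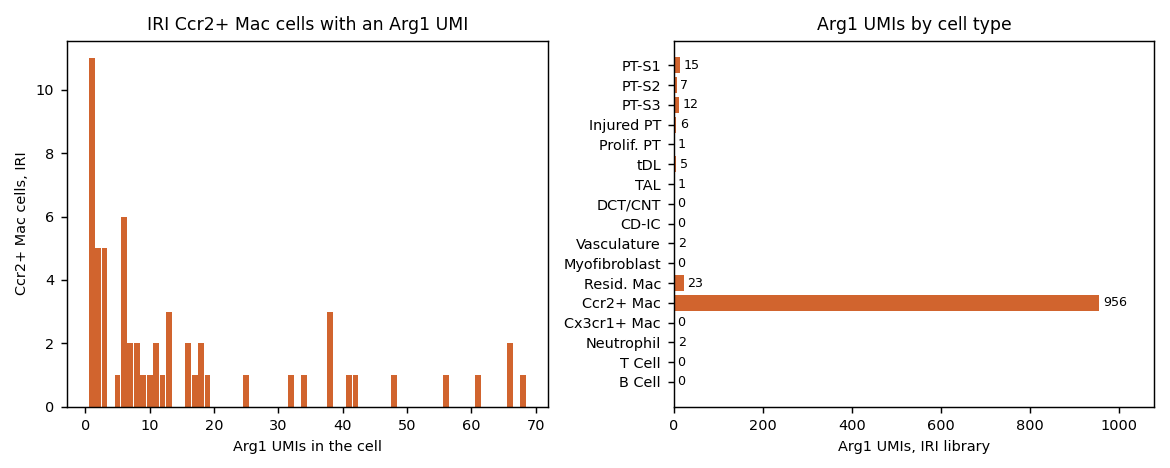
Number of Ccr2+ macrophages of the IRI kidney by their count of Arg1 UMIs, on the horizontal axis in UMIs per cell. Of 217 cells, 157 have none and 27 have 10 or more, with a highest count of 68.

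Cells split by their own Arg1 count are a description and not groups of the study. Gatm stood at 102 (76.7 to 134) and 90.3 (73.7 to 110) CPM and Ass1 at 106 (80 to 138) and 84.1 (68.1 to 103) in cells with and without Arg1. Odc1, ornithine decarboxylase, the first enzyme of polyamine synthesis, was 100.5 (75.0 to 132) and 87.7 (71.3 to 107). Arg2 was 23.2 (12 to 40.5) in cells with Arg1 and 5.31 (1.95 to 11.6) in cells without, from 12 and 6 UMIs. Ckb, brain-type creatine kinase, ran opposite, at 44.4 (28.2 to 66.7) and 212 (186 to 240). The intervals did not overlap for Arg2 and Ckb, and they overlapped for Gatm, Ass1 and Odc1. IRI T cells held 77.1 (52.0 to 110) of Gatm and 183 of Ass1, and more Odc1 than either set. Gatm, Ass1 and Odc1 are therefore not read as expression here. Their overlap does not show whether expression differs with Arg1.

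The control cells named Ccr2+ macrophages were few and differed in other markers. The complement gene C1qa was 4.72 CPM in them and 653 in IRI. The summed mean corrected count of 8 macrophage markers was 17.9 in control and 43.2 in IRI, that of 5 dendritic cell markers 3.13 and 0.383, and that of 5 infiltrating-monocyte markers 10.9 and 11.6. The part of this difference in the Arg1 result was not tested. Arg1 was at 0 in every control type, among them 106 Cx3cr1+ and 188 resident macrophages.

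Resident macrophages of the IRI kidney held 23 Arg1 UMIs in 12 of 306 cells, a level of 46.6 (29.6 to 70.0), 2.49 times what the control allows. The log2 ratio was 1.57, 2-fold higher, as were 6.66% of genes in that type. This rests on 2 cells with 6 UMIs each, which held 12 of the 23. Without them, a check added after seeing the data, the level was 22.4 (11.2 to 40.1), against the 18.7 that the control allows, and the log2 ratio of 0.99 was no longer 2-fold. No Arg1 UMI was seen in 19 IRI Cx3cr1+ macrophages, which allows 26.0 CPM. Over all macrophages the log2 ratio was 4.15, and Arg1 was 1 of 5 tested members 2-fold higher, where 2.46% of genes were. It passed the filter on summed counts through the IRI cells alone, so the count is not read against that share.

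Proximal tubule cells of the IRI kidney held 34 Arg1 UMIs, a level of 3.41 (2.36 to 4.77), 22.1 times what the control allows. Arg1 UMIs per UMI of Lyz2, the lysozyme gene of myeloid cells, numbered 0.0423 in these cells, 0.243 in Ccr2+ and 0.0247 in resident macrophages. Lyz2 itself was 80.6 CPM in IRI proximal cells and 4.58 in control ones. T cells of the IRI kidney held 66.8 of Lyz2 and no Arg1, which allows 7.71. The low Arg1 level in tubule cells is thus below the limit of detection in the reference cells, and expression there and free RNA from macrophages cannot be told apart. Other non-macrophage types held 6 Arg1 UMIs or fewer.

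Nos3 was found mostly in the vasculature, whose 8 endothelial markers gave a summed mean corrected count of 14.8 in control and 12.2 in IRI, against 0.0333 and 0.0222 in S1. Control vasculature held 57.4 (36.0 to 87.0), from 22 UMIs in 18 of 222 cells, and IRI vasculature 35.6 (13.1 to 77.4), from 6 UMIs in 6 of 96 cells. The ratio of 0.619 has an interval from 0.205 to 1.58, so no difference was detectable at this depth. These made up 73.3% of the 30 control and 60% of the 10 IRI UMIs of Nos3. The other UMIs were spread over types with 1 or 2 each.

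Across the 10 other cell types compared, 39 values of a member in a type could be tested and 6 were 2-fold different, where 9.97% of all gene-by-type values were: Arg1 in 2 macrophage types, Arg2 and Oat in tDL and Gatm in B cells were higher, and Ass1 in the distal convoluted and connecting tubule was lower. The Ass1 levels of that tubule lie within or below the T cell range and are not read as expression. Asl and Nos3 were among no such differences. Of these, Arg1 in both macrophage types, Arg2 in tDL and Gatm in B cells passed the filter on summed counts through the IRI cells alone, so the count is not read against that share. With 0.2 added to each mean in place of 0.05, Oat and Arg2 in tDL (log2 0.82 and 0.48) and Arg1 in resident macrophages (0.58) were under 2-fold.

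The surrounding pathway was read from a list of 48 genes for transport, nitric oxide, creatine, ornithine, proline, agmatine and aspartate supply, 38 of which are in the table. In the proximal tubule 34 were tested, 0 were 2-fold higher (0.41% of all genes were) and 2 were 2-fold lower (0.762% of all genes). The list's median log2 ratio was -0.0023, against -0.0101 over all genes. The 2 were Odc1, with a mean corrected count of 2.99 in control and 1.31 in IRI (log2 -1.17), and Gchfr, the feedback regulator of tetrahydrobiopterin synthesis, at 0.489 and 0.218 (log2 -1.01). The ratio interval of Odc1 lay below 1 in 7 of the 8 proximal clusters compared and included 1 in cluster 0. Its level was 1323 and 773 CPM with the clusters weighted alike.

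By role in the proximal tubule, 0 of 5 transporters of cationic amino acids, 0 of 5 creatine genes, 1 of 7 nitric oxide and dimethylarginine genes and 1 of 9 ornithine, proline and glutamate genes were 2-fold different. Nor were any of 2 ornithine carrier and urea cycle, 2 agmatine or 4 aspartate genes. Of the 5 list genes with the highest means there, Qdpr, which recycles biopterin, was 0.729 in control and 0.579 in IRI, glutamine synthetase Glul 0.582 and 0.572, and Ddah1, which breaks down methylated arginines, 0.461 and 0.373. Gamt, the enzyme after Gatm in creatine synthesis, had a log2 ratio of -0.51 while Gatm was at 0.86, and Prodh2, which breaks down hydroxyproline, was at 0.94. Qdpr, Glul, Ddah1, Gamt and Prodh2 were all under 2-fold.

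In macrophages of all types together 29 list genes were tested, 0 were 2-fold higher and 2 were lower, where 2.46% and 2.0% of all genes were. They were again Odc1, at 0.795 and 0.347 (log2 -1.09), and Gchfr, at 0.138 and 0.0351 (log2 -1.14). The pool held 188 resident, 32 Ccr2+ and 106 Cx3cr1+ cells in control, against 306, 217 and 19 in IRI. Over all cells, 1940 had a corrected Odc1 count above 0 without an Odc1 UMI. The part of makeup and of the depth correction in these values was not tested. The list's median was -0.08, against -0.05 over all genes. Odc1 UMIs in resident macrophages went from 574 to 95.3 CPM, and in T cells they were 233 and 260. Ckb was 0.564 and 0.574, Glud1, glutamate dehydrogenase, 0.215 and 0.201, Glul 0.215 and 0.105 and Qdpr 0.193 and 0.0959.

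The genes whose pattern over 31 groups (a type in a library) was most like each member were found by Pearson's r of log2 mean corrected counts among 7714 genes. These groups share libraries and free RNA, so r is a description. Arg1 was most like the coagulation factor gene F10 (r = 0.958) and the chemokine genes Ccl7 (0.954) and Ccl24 (0.95). Arg2 was most like the neutrophil genes S100a9 (0.902), S100a8 (0.895) and Retnlg (0.894). Ass1 was close to Miox (0.959) and Pck1 (0.956), and Asl was closest to Slc2a2 (0.884), Nox4 (0.884) and Slc4a4 (0.875). Gatm was closest to Gldc (0.888), Gsta2 (0.888) and Nox4 (0.886), Oat to Sestd1 (0.890), Hoxc10 (0.861) and Bicc1 (0.853), and Nos3 to Cldn15 (0.989), Slc9a3r2 (0.984) and Cldn5 (0.981). Between members, the highest values were 0.827 for Asl and Gatm, 0.738 for Ass1 and Gatm and 0.691 for Ass1 and Asl, and every pair with Arg1, Arg2 or Nos3 was at or below 0.172.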

How the data were processed

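Single cells of 1 control and 1 IRI kidney were analysed. Per the submitters' processing notes, Cell Ranger 3.0.0, Seurat 3.2 and the mm9 genome were used, and the role of each is not given in the sources used here. The authors deposited a count table that, by its values, holds depth-corrected counts rounded to whole numbers, a score and not raw counts, with totals of 1468 to 3212 per cell. The authors also deposited its natural log after adding 1, which was checked and not used further. Another deposited table holds Pearson residuals, also a score, of 3000 genes limited at 19.798. The deposited cell annotation has no separators, and other columns were split so that the corrected total matched in all 11759 cells, though 3615 cells allowed more than 1 split.

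Raw UMIs of the members were recovered from the residuals, a step chosen after seeing the data. Between 92.6% (Ass1) and 100% of values (Arg2, Asl, Nos3) came out whole within 0.05. In cells at the residual limit, among them 39 for Arg1, UMIs were read from the corrected count, to a median of 1.10 UMIs either way for Arg1. Gene means were compared as log2 ratios after adding 0.05, for genes with at least 10 summed corrected counts, in types where both libraries had 20 cells or more. No count model or test was run, because each condition has 1 library and cells are not replicates. Doublets were not called, and leaving out the deepest 5% of cells was an alternative. Members and lists were chosen with earlier results of these data known. The text names all members, list genes 2-fold different with at least 30 summed counts, the 5 list genes with the highest means and the 3 genes most like each member (1 of those for Ass1 is not reported here), and further genes were chosen after their values were seen. Promoters are from RefSeq (GRCm38.p6). Alternatives covered the added value, scaling, depth limits, segment weights and the measure itself. Scripts ran on simulated data first, with Python 3.11.15, numpy 2.4.6, pandas 2.3.3 and scipy 1.17.1.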

Additional observations from a re-analysis of the deposited data

How the results depend on the processing

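With 1 library per condition no replicate could be left out, and depth limits the rare members: Arg2 and Nos3 rest on 180 and 40 UMIs in all. No paired analysis was possible because each condition has 1 library. Of 592 gene values under the alternatives, 494 kept within the set limits, 98 moved and 0 called values changed sign. The members 2-fold different in the proximal tubule numbered 0 as reported, 1 when scaled by totals without mitochondrial, ribosomal protein and haemoglobin genes, 1 with cells of at least 2000 UMIs, 1 in PT-S3 alone and 3 by recovered UMIs. In the other types the number was 6 as reported, 3 with 0.2 added and 15 by recovered UMIs, for which a share over all genes was not computed because UMIs were recovered for few genes. For the pathway list in the proximal tubule, genes 2-fold higher went from 0 to 1 with 0.01 added and to 1 with totals scaling, and genes 2-fold lower from 2 to 1 with 0.2 added, to 1 by the trimmed mean and to 1 by totals. In macrophages, genes higher went from 0 to 2 with 0.01 added, and genes lower from 2 to 7 with 0.01 added, 0 with 0.2 added and 1 by the trimmed mean.

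The trimmed mean moved the median log2 ratio of genes with a mean of at least 1 from -0.16 to 0.06 in PT-S1 and from 0.08 to 0.58 in Ccr2+ macrophages. Gatm over S1 to S3 was 0.86 as reported, 0.20 with the segments weighted equally and -0.47 with the clusters weighted alike. In Ccr2+ macrophages Gatm went from -0.24 to 0.14 by the trimmed mean, and in the thick ascending limb from 0.53 to -0.88 with cells of at least 2000 UMIs, so neither has a direction.

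Shares of cells with a corrected count of at least 1 depended on depth and measure. Arg2 in IRI neutrophils was 22.6% and became 33.3% at 2000 UMIs or more, and Nos3 in control vasculature 7.66% and 15.4%. Gatm in control S1 was 92.7%, 94.8% at 1000 UMIs or more and 95.8% at 2000, and Oat in the control thick ascending limb was 23.5%, 33.0% and 38.5%. By recovered UMIs, Ass1 in control S1 went from 96.2% to 97.7% and Asl from 36.5% to 50.5%. Of the 21 genes most like the members, 3 were shared with the Spearman ranking and 10 with groups of at least 50 cells. The cause was not tested in any of these.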
